A study of Mus musculus with 7 samples.

Results

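The enzymes that write, maintain and remove DNA methylation were followed through mouse ovary development, from mid-gestation to the days after birth. The group held 8 genes, Dnmt1, Uhrf1, Dnmt3a, Dnmt3b, Dnmt3l, Tet1, Tet2 and Tet3, taken by their symbols from the 31053 genes of the deposited matrices. Single-cell RNA was counted in 7 libraries of wild-type, untreated C57BL/6J mice, 1 library per age, at E11.5, E12.5 and E14.5, then at E16.5 and E18.5, and after birth at P1 and P5. Each library pooled gonads of several animals (the labels call the E11.5 tissue gonad, without a sex, and the others ovary), which were dissociated with trypsin, for longer at the later ages, and loaded on the 10x Chromium droplet system, which counts the 3' ends of transcripts as unique molecular identifiers (UMIs). After barcodes with fewer than 200 genes were dropped, 50823 of 52542 remained. They were put in 3 classes, germ cells (at least 3 UMIs summed over Dazl, Ddx4 and Pou5f1, 4871 cells), cycling somatic cells (under that limit and at least 2 UMIs of Mki67, a protein of dividing cells, 5443 cells) and non-cycling somatic cells (the remaining 40509). All groups share 1 strain and genotype.

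Methyl groups on cytosine, mostly at CpG dinucleotides, are copied to the new strand at each DNA replication by DNMT1, which UHRF1 brings to hemimethylated DNA. DNMT3A and DNMT3B set new methylation, and DNMT3L, which has no catalytic activity, is their cofactor in germ cells, whereas the TET proteins oxidize methylated cytosine on the way to its removal. Primordial germ cells are known to lose nearly all methylation around the time they reach the gonad. In the female line it is set again after birth, in growing oocytes.

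Libraries held 31960736 to 124390521 UMIs, and germ cells numbered 38 at E11.5, 348 the next day, 2714 at E14.5 and 1024 at E16.5, with 439 in the E18.5 library, and 246 and 62 on days P1 and P5. The germ class matched its label, since 7 germ cell genes outside the rule summed to 1326 to 6174 counts per 1000000 UMIs (CPM) in the germ sums and to 1.92 to 71.5 CPM in the somatic sums. The E16.5 library stood apart. It shared 0 to 3 cell barcodes with each other library where the other 15 pairs shared 20 to 131, Mki67 in its cycling cells was at 1345 CPM against 167 to 577 CPM elsewhere, and 79.6% of its germ cells had at least 2 UMIs of Mki67 against 5.69 to 70.1%. Values without it are given with the tests. Some RNA of other cells was present in the germ sums, where erythroid markers were at 2.62 to 15.2% and mesenchymal markers at 2.81 to 8.83% of their non-cycling level. With 1 library per age, an age and its library cannot be told apart, and the intervals in brackets (95%, exact) cover counting error only.

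The clearest pattern was an exchange in the germ cells. Tet1 was high at E11.5 and E12.5 and near the floor from E18.5, while Tet3, Uhrf1 and Dnmt3b began low and were highest at P1 or P5. In the somatic class below the Mki67 limit the replication-linked pair Dnmt1 and Uhrf1 was lower at later ages. Neither trend was called when any 1 of E11.5, E12.5, E18.5 or P1 was left out. At E11.5 this class held 1983 CPM of a list of 14 S phase genes, against 455 to 821 CPM at the later ages. Dnmt3l was hardly counted anywhere.

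**Figure D1:**
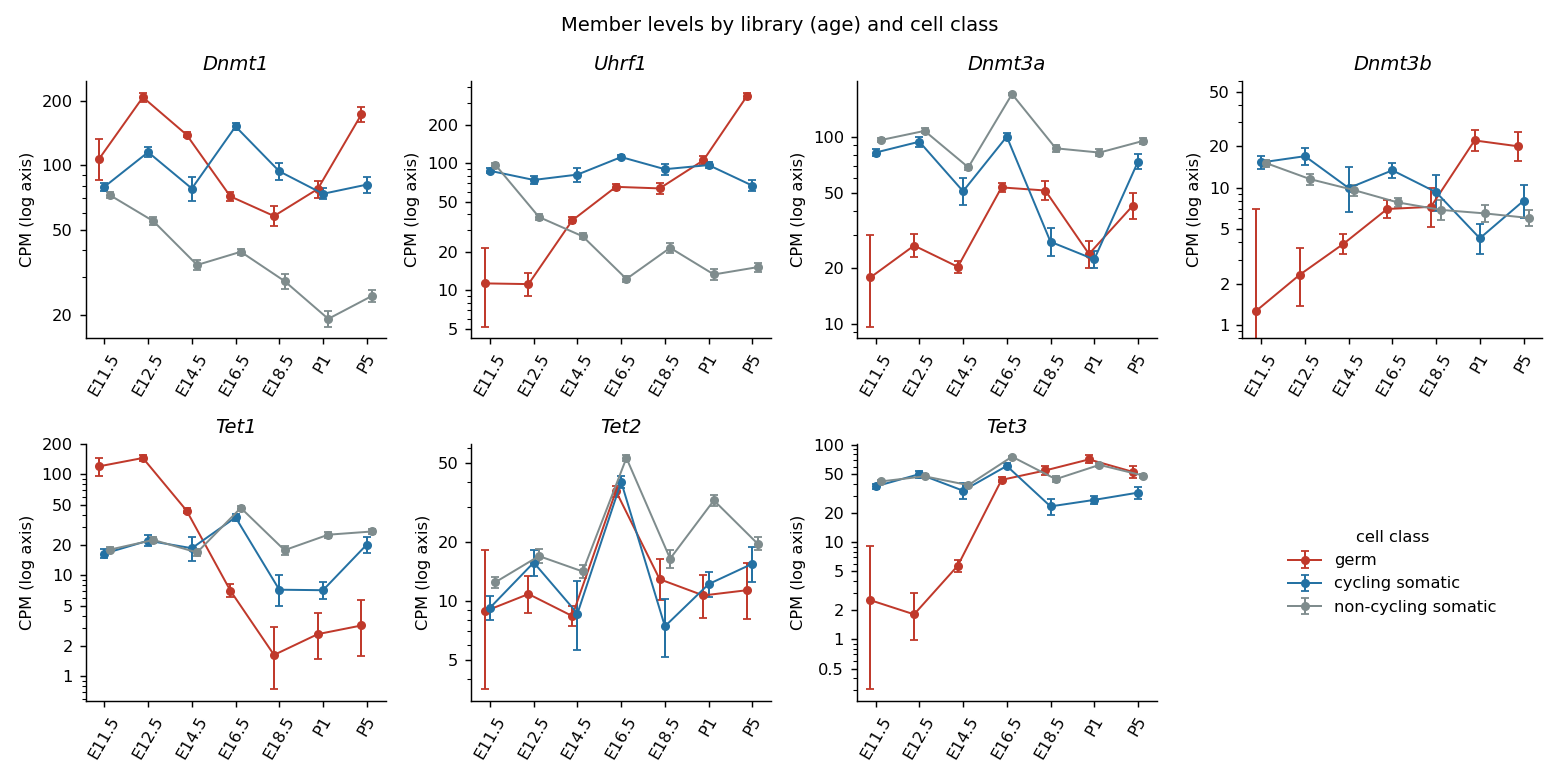
Level of 7 members in germ (red), cycling somatic (blue) and non-cycling somatic cells (grey) at each age, in CPM on a log axis, with 95% Poisson intervals for counting error as bars. In germ cells Tet1 goes from 145 CPM at E12.5 to 1.63 CPM at E18.5 and Uhrf1 from 11.2 CPM at E12.5 to 339 CPM at P5.

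Uhrf1 encodes the reader of hemimethylated CpG that recruits DNMT1 (mouse chromosome 17, 56303321 to 56323486, plus strand, GRCm38). Its germ level was 11.4 CPM at E11.5 and 11.2 at E12.5, then 35.6 at E14.5, 65.4 in the E16.5 library and 63.5 at E18.5, and after birth 106 at P1 and 339 at P5. The neighbours E11.5 and E12.5 could not be told apart by counting (ratio 0.987, 0.497 to 2.23), nor could E16.5 and E18.5 (0.972, 0.864 to 1.09), and each other step was upward. Between E12.5 and E14.5 the ratio was 3.17 (2.55 to 3.98), and between P1 and P5 it was 3.21 (2.92 to 3.54), so that the P5 level stood 30.2-fold (24.3 to 38.0) above E12.5. After each cell was thinned to 2000 UMIs, 2.63% of the 38 E11.5 and 37.1% of the 62 P5 germ cells had a Uhrf1 UMI. Before thinning the shares were 10.5% and 91.9%, and no germ cell at these ages was too shallow to thin. At E11.5 the shares rest on very few cells. Germ Uhrf1 was there at 0.117 (0.0533 to 0.221) of its non-cycling level. Erythroid (2.62%) and mesenchymal markers (3.94%) lay below this interval. Supporting cell markers (36.7 CPM in germ and 272 CPM in non-cycling cells) and immune markers (7.58 and 57.4 CPM) lay inside it. E11.5 germ Uhrf1 was thus not told apart from RNA of other cells. No class here is known to lack Uhrf1, so these shares have no background of their own.

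In somatic cells Uhrf1 was higher in the cycling class at 6 of 7 ages, though edgeR's test between the somatic classes did not call it (adjusted p = 0.0641). Cycling cells held 87.4, 74.0, 81.6, 112, 90.0, 97.0 and 66.8 CPM from E11.5 to P5, a narrow range with no order by age. Non-cycling cells held 97.6, 37.8, 26.7, 12.3, 21.7, 13.4 and 15.3 CPM, and the P5 level was 6.4-fold (5.87 to 6.98) below that at E11.5. At E11.5 the non-cycling cells thus had slightly more Uhrf1 than the cycling ones (ratio of cycling to non-cycling 0.895, 0.852 to 0.941), and at the other 6 ages they had less, with ratios of 1.96 to 9.09. In that library the S phase list summed to 1983 CPM in non-cycling and 1755 CPM in cycling cells. The G2 and M phase list summed to 1415 and 3095 CPM. Why Uhrf1 differed there was not tested.

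Dnmt1 encodes the maintenance methyltransferase itself (chromosome 9, 20907209 to 20959888, minus strand). Germ cells held 107 CPM at E11.5 and 209 at E12.5, then 139 at E14.5, 71.6 in the E16.5 library and 57.9 at E18.5, and after birth 77.6 at P1 and 174 at P5. The course was therefore a dip and not a climb, with E18.5 lowest and P5 at 0.832 (0.756 to 0.914) of the E12.5 level. Cycling somatic cells held 79.4, 115, 78.0, 152, 93.9, 73.6 and 81.3 CPM and non-cycling cells 72.7, 54.8, 34.1, 39.4, 28.7, 19.1 and 24.4 CPM. In each of the 7 libraries germ cells had more Dnmt1 than non-cycling cells, by 1.48 (E11.5) to 7.11 times (P5), and cycling cells had more than non-cycling ones, by 1.09 (E11.5) to 3.87 times (E16.5).

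Sequence before the annotated starts is shown for this pair because both genes are known targets of the E2F factors that drive genes of DNA replication. All 8 members matched the RefSeq promoter table (GRCm38.p6, 250 bases before to 50 after each start), which gives 2 windows for Uhrf1 and 3 for Dnmt1. The words TTTCGCGC, TTTGGCGC and TTTCCCGC, forms of the E2F site, were searched on both strands, and the capitals mark them. Of the members' 15 windows 2 held a match, 1 of Uhrf1 and 1 of Dnmt1, where 1.84% of all 32851 windows did. The Uhrf1 window below lies at chr17:56304063-56304312 on the plus strand, and the Dnmt1 words are shown with 8 bases on each side, at chr9:20952827-20952850 and chr9:20952575-20952598 on the minus strand, in annotated exons. In the former Dnmt1 piece the capitals are TTTCGCGC read from the opposite strand.
Uhrf1: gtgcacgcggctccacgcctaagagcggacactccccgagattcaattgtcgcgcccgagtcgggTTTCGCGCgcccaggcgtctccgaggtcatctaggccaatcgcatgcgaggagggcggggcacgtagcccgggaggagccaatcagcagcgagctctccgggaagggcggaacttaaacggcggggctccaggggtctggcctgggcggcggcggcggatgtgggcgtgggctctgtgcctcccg
Dnmt1, before a start: ttccgcgcGCGCGAAAaagccggg
Dnmt1, after a start: gggcagcgTTTGGCGCgggctgtg

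The Dnmt1 windows differ among themselves. The one with both E2F words held 33 CpG, and the one farthest upstream held 2, against a median of 7 over all windows. Dnmt1 is known to be read from separate first exons in somatic cells and in oocytes, but UMIs of transcript 3' ends do not tell these starts apart, so the levels above sum over them. The upstream sequence, at chr9:20959889-20960138 on the minus strand, is shown for contrast, with no capitals since no word was found in it.
Dnmt1, farthest upstream: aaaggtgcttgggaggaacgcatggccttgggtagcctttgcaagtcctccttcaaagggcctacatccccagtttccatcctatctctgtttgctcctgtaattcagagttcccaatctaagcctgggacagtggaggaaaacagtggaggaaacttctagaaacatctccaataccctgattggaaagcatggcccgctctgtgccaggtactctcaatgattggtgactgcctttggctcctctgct

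Dnmt3a encodes a de novo methyltransferase (chromosome 12, 3806007 to 3914443, plus strand). By CPM it was higher in non-cycling somatic cells than in the other classes, as Tet2 was. Between the somatic classes edgeR's test called neither gene (adjusted p = 0.136 for Dnmt3a and 0.147 for Tet2). Germ cells held 17.7, 26.2, 20.2, 53.6, 51.6, 23.6 and 42.7 CPM of Dnmt3a from E11.5 to P5, with no order by age. The E16.5 library was highest for Dnmt3a in each class, as it was for Tet2. Non-cycling cells held 68.6 CPM at the lowest (E14.5), 94.9 at the median and 169 at the highest (E16.5), more than germ cells in each library. The ratio of germ to non-cycling cells was lowest at E11.5 (0.185, 0.101 to 0.310) and highest at E18.5 (0.595). Erythroid (2.62%) and mesenchymal markers (3.94%) lay below the E11.5 interval. Inside it lay supporting cell (36.7 CPM in germ, 272 CPM in non-cycling cells), epithelial (22.7, 83.9) and immune markers (7.58, 57.4). E11.5 germ Dnmt3a was thus not told apart from RNA of other cells. Cycling cells, at 22.1 to 100 CPM, were below non-cycling cells in 7 of 7 libraries, by least at E12.5 (0.876) and by most at P1 (0.269). These ratios are of CPM without the scaling of the tests, whose factor was 0.645 for the P1 cycling and 1.03 for the P1 non-cycling sum.

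Dnmt3b encodes the other de novo enzyme (chromosome 2, 153649450 to 153687730, plus strand). In germ cells it was counted with 1 UMI (1.26 CPM) at E11.5 and 18 (2.32) at E12.5, then 143 (3.90) at E14.5, 178 (7.0) in the E16.5 library and 40 (7.26) at E18.5, and after birth 135 (22.1) at P1 and 69 (20.1) at P5. The E16.5 and E18.5 levels could not be told apart (ratio 1.04, 0.717 to 1.47), nor could P1 and P5 (0.906, 0.668 to 1.22), whereas P1 was 3.05-fold (2.13 to 4.45) above E18.5. Cycling somatic cells held 4.28 to 17.0 CPM and non-cycling cells 6.03 to 15.1 CPM, so that germ cells lay below both somatic classes from E11.5 to E14.5 and above both at P1 and P5. At P1 the ratio was 5.17 (3.81 to 7.09) to cycling and 3.40 (2.71 to 4.26) to non-cycling cells. These are ratios of CPM without the scaling of the tests. Its factor was 0.645 for the P1 cycling and 1.08 for the P1 germ sum, so a scaled ratio to cycling cells would be lower. Germ Dnmt3b was at 0.0837 (0.00212 to 0.468) of its non-cycling level at E11.5, with erythroid (2.62%) and mesenchymal markers (3.94%) inside this interval. At E12.5 it was at 0.201 (0.118 to 0.321), with these markers below (2.79% and 2.999%) and epithelial markers inside (17.4 CPM in germ and 138 CPM in non-cycling cells). At both ages it was not told apart from RNA of other cells.

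Dnmt3l encodes the cofactor that oocytes need to set imprints (chromosome 10, 78041947 to 78063622, plus strand). Only 4 UMIs were counted in all germ cells, 2 at E12.5, 1 at E16.5 and 1 at P5. At P5 this gave 0.291 CPM (0.00736 to 1.62), and at P1, with 0 UMIs, the interval reached 0.605 CPM. Non-cycling cells had 46 UMIs in all, 20 of them at P5 (0.531 CPM), and cycling cells 6. The gene did not pass the low-count filter of the tests, and the other 7 members did.

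Tet1 encodes a dioxygenase known from primordial germ cells and pluripotent cells (chromosome 10, 62804570 to 62908996, minus strand). Germ cells held 120 CPM at E11.5 and 145 at E12.5, then 43.8 at E14.5, 7.08 in the E16.5 library and 1.63 at E18.5, and after birth 2.62 at P1 and 3.20 at P5, the last 3 from 9, 16 and 11 UMIs. Counting could not separate E11.5 from E12.5 (ratio 1.21, 0.980 to 1.51) or E18.5 from P5 (1.96, 0.737 to 5.34). Between them, E14.5 was 3.32-fold (3.07 to 3.58) below E12.5, E16.5 6.18-fold (5.29 to 7.25) below E14.5, and E18.5 88.8-fold (46.6 to 195) below E12.5. Non-cycling cells held 16.9 to 46.6 CPM, so that germ cells had 6.68 times their level at E11.5 and at 0.0919 to 0.118 of their level from E18.5 on. The markers of other cells in the germ sums stood at 15.2% (erythroid) and 6.50% (mesenchymal) of their non-cycling level at E18.5 and at 12.96% and 5.78% at P1, so at these ages germ cell Tet1, at 0.0919 (0.0417 to 0.176) and 0.104 (0.0590 to 0.170), was not told apart from RNA of other cells. At P5 these markers were at 3.04% and 2.81%, below the interval of Tet1 (0.118, 0.0585 to 0.211). Supporting cell markers (48.0 CPM in germ and 1961 CPM in non-cycling cells) and immune markers (10.5 and 313 CPM) also lay below it. Epithelial markers (12.2 and 177 CPM) lay inside it, so P5 Tet1 was not told apart from RNA of other cells either. Endothelial markers (8.72 and 48.9 CPM) also lay inside it. They gauge such RNA poorly, since at E11.5 they were higher in germ (97.3 CPM) than in non-cycling cells (50.2 CPM).

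Tet3 encodes the TET protein known from oocytes and zygotes (chromosome 6, 83362373 to 83459084, minus strand), and its germ course ran the other way. Germ cells held 2.53 CPM (2 UMIs) at E11.5 and 1.81 (14 UMIs) at E12.5, then 5.73 at E14.5, 43.7 in the E16.5 library and 54.6 at E18.5, and after birth 71.0 at P1 and 52.9 at P5. The widest step lay between E14.5 and E16.5, at 7.62-fold (6.57 to 8.87), and P1 stood 39.3-fold (23.2 to 72.5) above E12.5, with P5 lower again (0.745 of P1, 0.623 to 0.888). At E12.5 germ Tet3 was at 0.03796 (0.0207 to 0.0639) of its non-cycling level, and at E11.5 at 0.06 (0.00726 to 0.217). Erythroid and mesenchymal markers in the germ sums lay inside these intervals, at 2.79% and 2.999% at E12.5 and 2.62% and 3.94% at E11.5. At both ages germ Tet3 was not told apart from RNA of other cells, so the 39.3-fold rests on such a baseline. Tet3 was also highest in the E16.5 library in both somatic classes, and against non-cycling cells the germ ratio was 0.149 (0.128 to 0.171) at E14.5 and 0.577 (0.540 to 0.615) at E16.5. Erythroid (9.31%) and mesenchymal markers (7.20%) lay below the E14.5 interval. Epithelial markers (17.3 CPM in germ and 116 CPM in non-cycling cells) lay inside it. E14.5 germ Tet3 was thus not told apart from RNA of other cells either, and the 7.62-fold step rests on that baseline. Somatic cells had no such course, with 23.3 to 60.8 CPM in cycling and 38.6 to 75.8 CPM in non-cycling cells. Germ cells were 26.3-fold (15.7 to 48.3) below non-cycling cells at E12.5 and could not be told apart from them at P5 (1.09, 0.933 to 1.27).

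Tet2 encodes the TET protein best known from blood cells (chromosome 3, 133463679 to 133545139, minus strand). Its germ level was 8.38 to 12.9 CPM at 6 ages and 36.1 CPM in the E16.5 library, 4.31-fold (3.78 to 4.92) above E14.5. That library was also highest in cycling cells (40.2 against 7.43 to 15.7 CPM) and in non-cycling cells (53.2 against 12.4 to 32.4 CPM), so that it stood highest in each of the 3 classes. Over the whole span, P5 and E12.5 germ cells did not differ beyond counting error (1.05, 0.696 to 1.55).

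The question of which class holds more was put to edgeR's quasi-likelihood test on the 21 sums, with library as a block and Benjamini-Hochberg adjustment over all genes tested. The 3 comparisons share these sums, so their results are not independent of each other. Against cycling somatic cells, 1 of the 7 members tested was called, Dnmt3a, lower in germ cells by 0.99 ± 0.23 (SE) on the log2 scale with an adjusted p of 0.00162. It was lower in 5 of 7 libraries only, with a two-sided exact sign-flip permutation p of 0.125, and without E16.5 the fitted difference was -0.98 ± 0.27 (adjusted p = 0.00676). Among all 15016 genes tested, 23.7% were called higher and 32.6% lower, so 1 call in 7 is below the background. Dnmt1 was nearly even between these classes (log2 0.08 ± 0.31, adjusted p = 0.832), and Uhrf1 (-0.55 ± 0.61, 0.461), Dnmt3b (-0.47 ± 0.47, 0.405), Tet1 (0.48 ± 0.86, 0.653), Tet2 (-0.23 ± 0.20, 0.338) and Tet3 (-0.75 ± 0.51, 0.221) did not pass either. For Uhrf1, Tet1 and Tet3 the library ratios lay on both sides of 1, with germ to cycling ratios of 0.130 to 5.08, 0.159 to 7.30 and 0.0361 to 2.61.

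Against non-cycling somatic cells 3 of the 7 members were called, where 27.3% of all genes tested were called higher and 34.4% lower. Dnmt1 was higher in germ cells by 1.73 ± 0.32 (adjusted p = 1.40e-04), in 7 of 7 libraries. Dnmt3a was lower by a log2 difference of -1.51 ± 0.23 (2.44e-05) and Tet2 by -0.65 ± 0.19 (0.00745), both in 7 of 7 libraries. For Tet2 the counting interval of the ratio held 1 in 2 of them, E11.5 (0.285 to 1.47) and E18.5 (0.601 to 1.02). The exact sign-flip permutation test over the 7 libraries gave each of the 3 a two-sided p of 0.0156, the smallest it can give. Uhrf1, at 1.24 ± 0.67 (0.118), missed the threshold but passed it without E11.5 (1.88, adjusted p = 0.0111) and without E12.5 (1.71, 0.0422), the ages at which germ cells held less of it than the non-cycling cells. Tet3 (-0.94 ± 0.50, 0.113), Dnmt3b (-0.01, 0.992) and Tet1 (-0.01, 0.990) were not called. Without the E16.5 library the calls of Dnmt1, Dnmt3a and Tet2 stood, with adjusted p of 2.53e-04, 2.22e-04 and 0.0176.

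**Figure D2:**
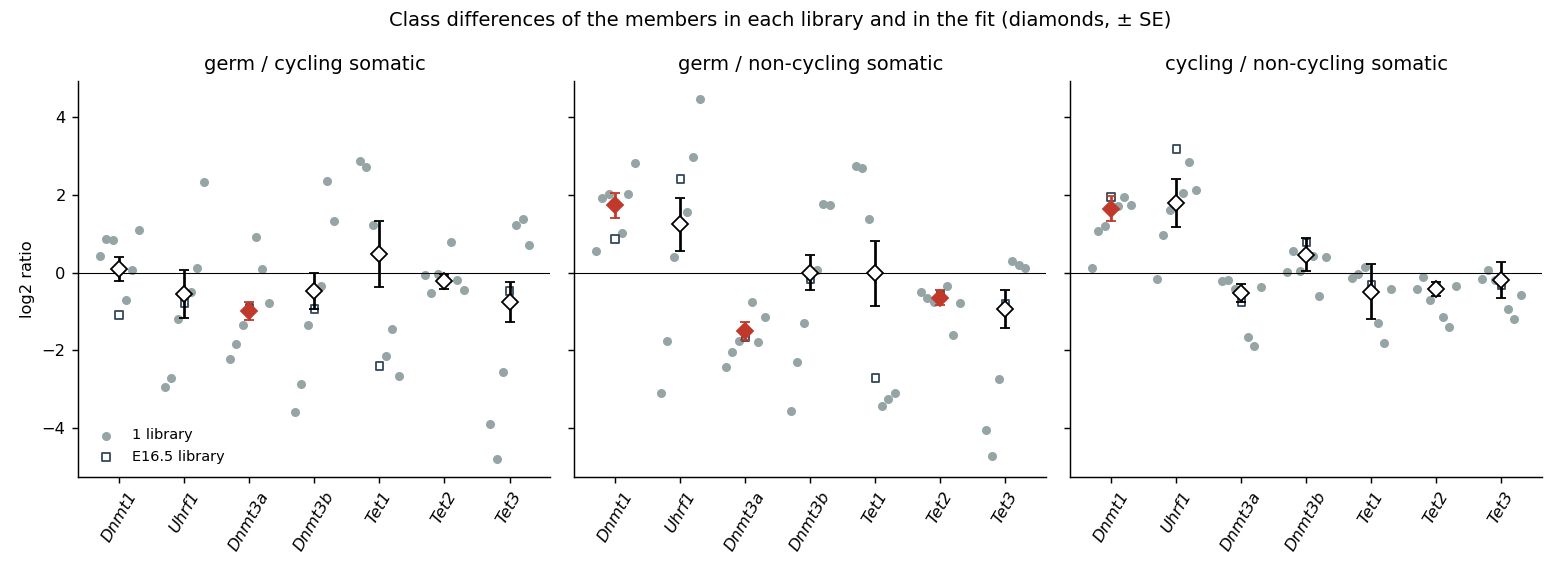
Log2 ratio of the member's CPM between classes, for each library (grey points, E16.5 as open squares) and as fitted over the 7 libraries (diamonds with SE, filled red where the adjusted p is under 0.05). Points of Dnmt1 lie above 0 in 7 of 7 libraries against non-cycling cells, while those of Tet1 and Tet3 spread over both sides.

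Between the somatic classes, where 8.0% of genes were called higher in cycling cells and 5.34% lower, Dnmt1 was the 1 member called, at 1.65 ± 0.31 (adjusted p = 0.00199). It was higher in 7 of 7 libraries, and the call stood without E16.5 (0.0103) and in mesenchymal-marker cells alone (1.09 ± 0.26, 0.0185). Uhrf1, at 1.79 ± 0.62, had an adjusted p of 0.0641 and was higher in 6 of 7 libraries, and it passed without E11.5 (2.26, 0.0117) and without E12.5 (0.0495). In mesenchymal-marker cells alone it did not pass (1.14 ± 0.59, 0.495). Dnmt3a (-0.52 ± 0.22, 0.136) and Tet2 (-0.42 ± 0.19, 0.147) missed the threshold although they were lower in cycling cells in 7 of 7 libraries, and Tet1 (-0.49, 0.688), Tet3 (-0.19, 0.829) and Dnmt3b (0.47, 0.505) were not called.

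The makeup of the cycling class moved with age beside these values. Cells with erythroid markers made up 3.75% (E12.5) to 63.8% (P1) of cycling cells, and cells with mesenchymal markers 17.6% (P1) to 61.4% (E11.5). Erythroid-marker cells held little Dnmt3a (2.98 to 11.7 CPM, against 74.1 to 170 CPM in mesenchymal-marker cells) and little Tet1 (0.326 to 2.80 against 18.9 to 70.6 CPM). By unscaled CPM, P1 was the library in which the cycling class held least of both against the non-cycling class (0.269 and 0.282). Without erythroid-marker cells the log2 difference of Dnmt3a between cycling and non-cycling cells was -0.28 ± 0.19 (adjusted p = 0.426), and its difference between germ and cycling cells remained called, at -1.12 ± 0.20 (1.19e-04).

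Whether a member moved with age was tested as a slope over the 7 ages in order (log2 per age step), by edgeR's quasi-likelihood test within each class. In germ cells 4 of the 7 members were called, where 5.91% of the 12243 genes tested rose and 5.10% fell. Uhrf1 rose by 0.75 ± 0.10 per step, that is 1.68-fold (adjusted p = 0.00302), Tet3 by 0.92 ± 0.19 or 1.90-fold (0.0168) and Dnmt3b by 0.62 ± 0.12 or 1.54-fold (0.0127), and Tet1 fell by 1.22 ± 0.21 or 2.33-fold per step (0.00828). Dnmt1 (-0.11 ± 0.13, 0.631), Dnmt3a (0.12 ± 0.11, 0.540) and Tet2 (-0.01 ± 0.15, 0.972) were not called. The calls of Uhrf1 and Tet1 stood without any single library. Dnmt3b lost its call without P1 (0.55, adjusted p = 0.0574), and Tet3 without E11.5 (0.0650), E12.5 (0.0614) or P1 (0.0557). Without E16.5 all 4 passed, with adjusted p of 0.00115 to 0.00731.

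In cycling somatic cells edgeR called none of the 7 members, 1 of which (Dnmt3b, -0.20 ± 0.08, adjusted p = 0.266) had an unadjusted p under 0.05 (0.0318), and DESeq2 called 0. Without E16.5 the lowest adjusted p among the members there was 0.229 (Dnmt3b). Over all 13499 genes tested there, 0.911% were called in either direction. In non-cycling cells 2.48% of 16119 genes rose and 1.51% fell, and Dnmt1 fell by 0.28 ± 0.06 (adjusted p = 0.0284) and Uhrf1 by 0.42 ± 0.09 (0.0450) per step. Without E16.5 both were called (0.0344 and 0.0280), but the calls were not firm. Dnmt1 missed the threshold without E11.5 (0.120), E12.5 (0.0698), E18.5 (0.0535) or P1 (0.0968), and Uhrf1 without E11.5 (slope -0.25, 0.276), E12.5 (0.0757), E14.5 (0.0543), E18.5 (0.0744), P1 (0.128) or P5 (0.0676).

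**Figure D3:**
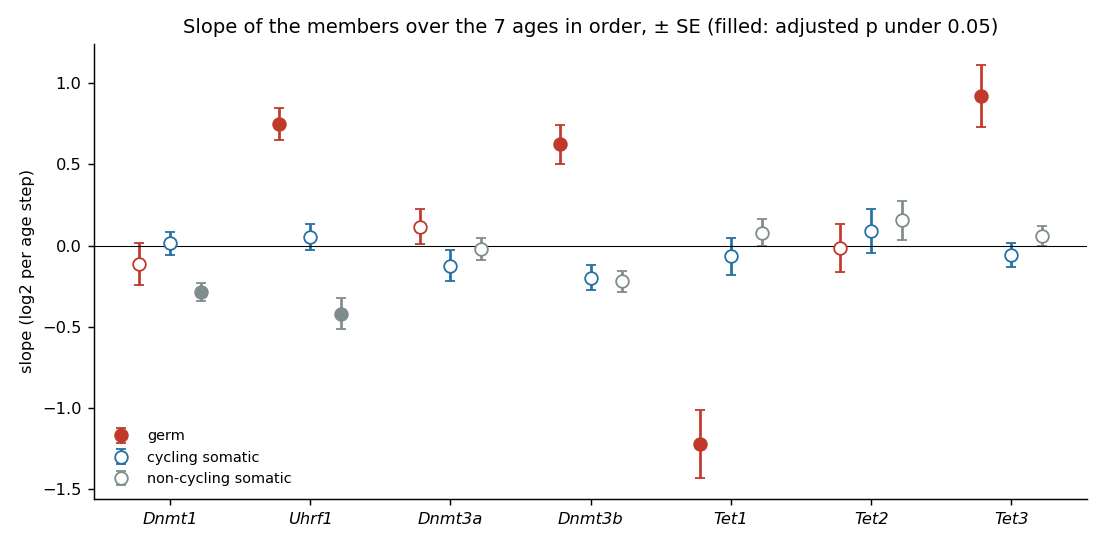
Slope of 7 members over the ages in order, in log2 per age step with SE, for germ (red), cycling (blue) and non-cycling somatic cells (grey), filled where the adjusted p is under 0.05. The germ slopes of Uhrf1, Dnmt3b and Tet3 lie at 0.62 to 0.92 and that of Tet1 at -1.22, while each somatic slope lies between -0.42 and 0.16.

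That the germ and cycling somatic courses differ was tested directly, as a class by age term in the fit on all sums. The gap between germ and cycling cells moved by 0.77 ± 0.12 per step for Dnmt3b (adjusted p = 6.48e-04), 0.64 ± 0.15 for Uhrf1 (0.00938), 0.95 ± 0.15 for Tet3 (6.68e-04) and -1.17 ± 0.19 for Tet1 (7.02e-04), 4 of 7 members where 7.13% of genes were called upward and 7.86% downward. The call of Uhrf1 was lost without P5 (0.43, adjusted p = 0.0700), and the other 3 stood without any single library. Without E16.5 all 4 were called, with adjusted p of 2.78e-04 to 0.00431. Dnmt3a (0.24 ± 0.10, 0.137), Dnmt1 (-0.17 ± 0.14, 0.458) and Tet2 (-0.11, 0.508) were not called, though Dnmt3a was without P5 (0.0235).

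Splits inside single libraries leave age and library fixed. At E14.5, where germ cells enter meiosis unevenly, they were divided by their UMIs of Stra8, the retinoic acid target needed for meiotic entry, into 166 cells with 0, 872 with 1 to 9 and 1676 with 10 or more. Tet1 was at 90.2, 60.1 and 33.2 CPM in that order, 2.72-fold (2.29 to 3.21) lower in the last than in the first. Uhrf1 was at 16.7, 22.6 and 42.6 CPM (2.54-fold, 1.78 to 3.76), Dnmt1 at 114, 128 and 146 CPM (1.28-fold, 1.12 to 1.48) and Tet3 at 2.70, 5.54 and 6.04 CPM. Within this 1 library the cells richest in Stra8 therefore stood closer to the E16.5 germ cells in Tet1 and Uhrf1 than the cells without it did, and farther from them in Dnmt1 (71.6 CPM at E16.5).

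In the E12.5 germ cells Uhrf1 did not go with Mki67 as it did in the somatic cells of the same library. The 244 cells with at least 2 UMIs of Mki67 held 9.88 CPM of Uhrf1 and the 104 others 16.9 CPM, a ratio of 0.584 (0.362 to 0.971), where the ratio of cycling to non-cycling somatic cells in that library was 1.96. Dnmt1 was nearly even (214 and 188 CPM, ratio 1.14, 0.998 to 1.30), and Tet1 was higher in the Mki67-rich cells (154 and 110 CPM, 1.40, 1.18 to 1.66). Mki67 counts also scale with a cell's total UMIs, so deeper cells pass the limit more readily. The same holds for the somatic classes, whose median UMIs per cell at E12.5 were 15620.5 (cycling) and 10145 (non-cycling).

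Among oocytes after birth, cells were split by their UMIs of a list of 10 growing oocyte genes (zona pellucida proteins, Gdf9, Nlrp5 and others). At P5, 39 cells with 100 or more of these UMIs held 367 CPM of Uhrf1 and 16 cells with 10 to 99 held 193 CPM (1.91-fold, 1.55 to 2.36). Dnmt1 went with it, at 193 against 73.3 CPM (2.63-fold, 1.89 to 3.76), and Dnmt3b did not, at 17.7 against 32.8 CPM. Levels of the remaining P5 germ cells (62 in all), with fewer than 10 UMIs of the list, are not given here. At P1 the 3 classes of 158, 83 and 5 cells held 78.0, 114 and 225 CPM of Uhrf1, 58.8, 90.4 and 83.1 CPM of Dnmt1 and 13.8, 27.6 and 27.7 CPM of Dnmt3b. Counts of the list, and of Stra8, scale with a cell's total UMIs, so that deeper cells fall in the upper classes.

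**Figure D4:**
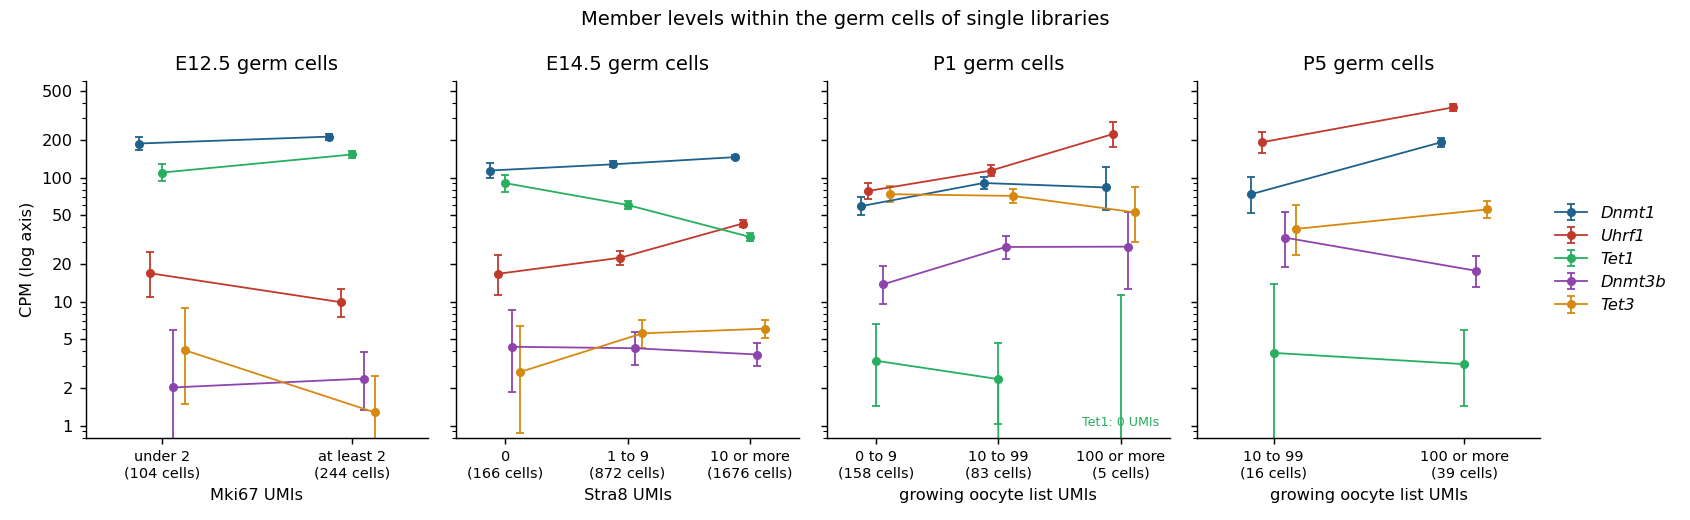
Level of 5 members, in CPM on a log axis with 95% Poisson intervals, in germ cells of E12.5 split by Mki67, of E14.5 split by Stra8, and of P1 and P5 split by UMIs of the growing oocyte list. Tet1 declines from 90.2 to 33.2 CPM over the Stra8 classes of E14.5 while Uhrf1 climbs from 16.7 to 42.6 CPM.

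In cycling somatic cells the maintenance pair was higher in cells in which S phase genes led. Cells whose S phase list (14 genes) outweighed their G2 and M phase list (12 genes) had 1.73 to 2.64 times the Uhrf1 of the rest in 7 of 7 libraries, with intervals above 1. For Dnmt1 the ratio was 1.06 (0.875 to 1.28) at E18.5 and 1.47 to 2.29 at the other 6 ages. Dnmt3a, at 0.388 to 1.19, Tet1, at 0.304 to 0.816, and Dnmt3b, at 0.607 to 1.06, had no such lead. Cell type was not held fixed in this split, and erythroid-marker cells made up 3.75 to 63.8% of the cycling class. Whether phase or makeup underlies these ratios was not tested.

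Somatic marker groups differed in Dnmt3b and Dnmt3a. Cells with markers of endothelium (34 or more per library) held 20.7 to 40.0 CPM of Dnmt3b, the highest of the 6 marker groups in 7 of 7 libraries, against 5.69 to 16.1 CPM in mesenchymal-marker cells. Erythroid-marker cells held the least Dnmt3a and the least Tet2 in 7 of 7 libraries. Tet1 was at 18.9 to 70.6 CPM in mesenchymal-marker cells, 13.3 to 38.4 CPM in cells with supporting cell and pregranulosa markers and 0 to 10.1 CPM in immune-marker cells. Mesenchymal-marker cells had more Dnmt1 and more Uhrf1 than the supporting cell and pregranulosa group in 7 of 7 libraries (medians 57.5 against 26.2 CPM and 47.4 against 15.4 CPM). These 2 groups were not matched for cycling. Cells with at least 2 UMIs of Mki67 were 8.81 to 25.3% of the mesenchymal and 0.705 to 5.52% of the supporting group. Whether this share underlies the difference was not tested.

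**Figure D5:**
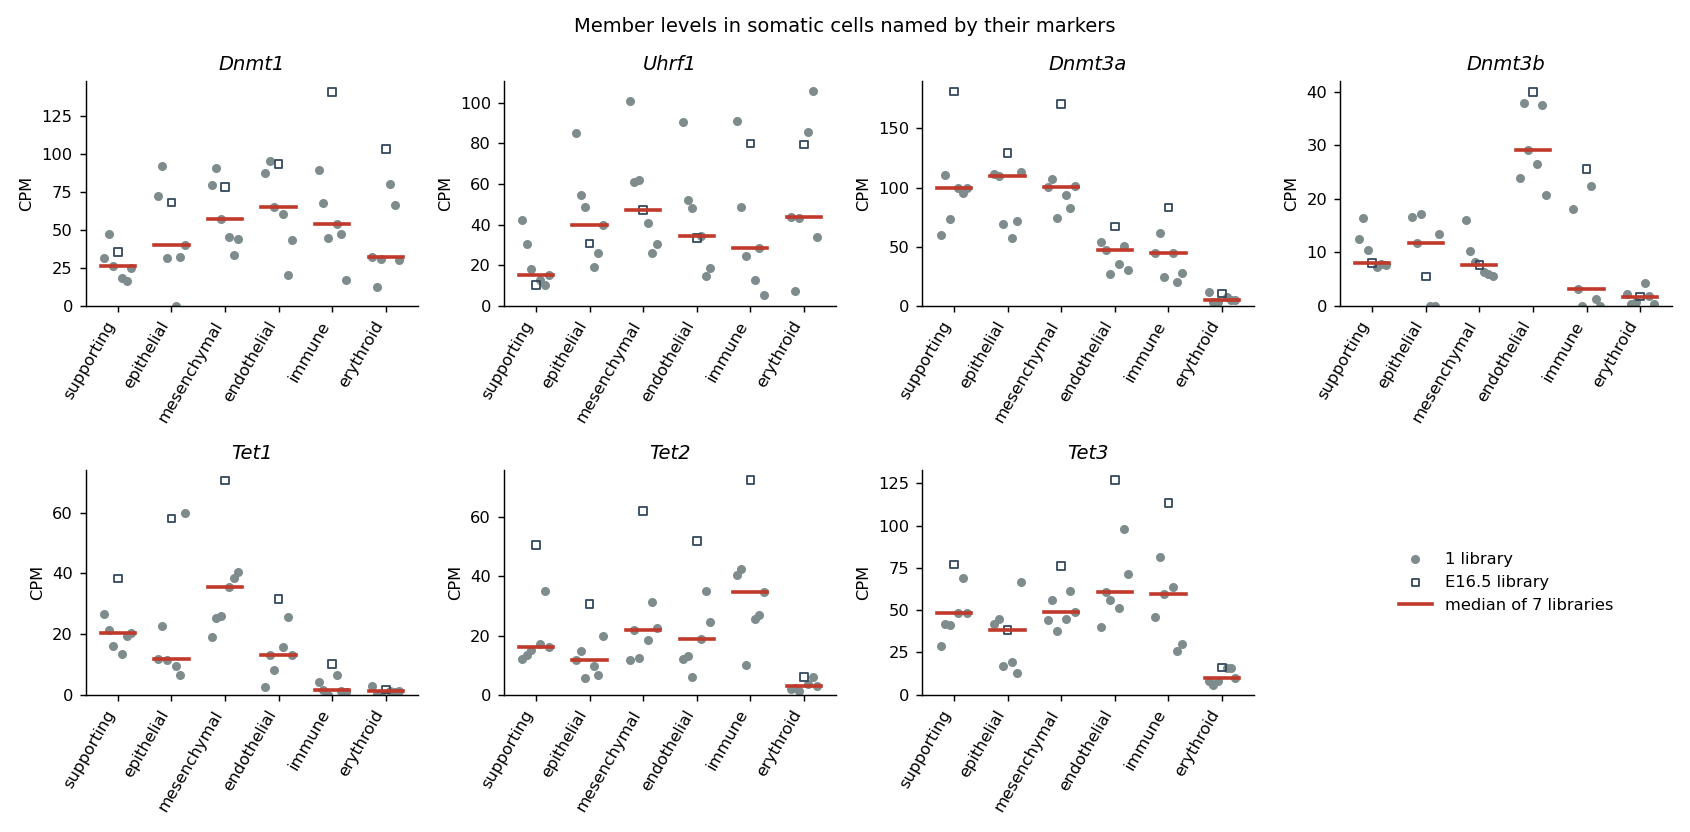
Level of 7 members in CPM in somatic cells grouped by marker genes, with a point per library (E16.5 as open squares) and the median of 7 libraries as a line. Endothelial cells stand highest for Dnmt3b at 20.7 to 40.0 CPM and erythroid cells lowest for Dnmt3a at 2.98 to 11.7 CPM.

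The wider methylation pathway was read from 4 lists. Of 10 partners of maintenance methylation, 4 were called higher and 0 lower in germ than in non-cycling cells, and 3 higher and 4 lower than in cycling cells, with list medians of 0.43 and -0.08 on the log2 scale against -0.11 and -0.14 over all genes tested. Dppa3 (Stella), which is known to keep UHRF1 off chromatin in oocytes, was higher by 7.18 ± 0.69 and 7.90 ± 0.72, and the chromatin remodeller Hells by 3.33 ± 0.34 and 2.46 ± 0.33. The Dppa3 level in germ cells was 1067, 855, 762, 6.10, 234, 2545 and 4426 CPM from E11.5 to P5, lowest in the E16.5 library, and it was highest at P5, as Uhrf1 was. Lower than in cycling cells were the clamp Pcna (-0.91 ± 0.35) and Cdca7 (-1.31 ± 0.32), which works with Hells.

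Of 18 genes of base excision repair and deamination, 17 were tested, and 6 were higher and 7 lower in germ cells against either somatic class. Over the 4 lists together 26 of 45 tested genes (57.8%) were called against cycling cells and 25 (55.6%) against non-cycling cells, close to the 56.3% and 61.8% of all genes. The uracil glycosylase Ung was higher by 2.07 ± 0.39 against cycling and 2.09 ± 0.37 against non-cycling cells, and the deaminase Apobec3 lower (-4.16 ± 0.46 and -3.45 ± 0.44). Among 11 tested genes of imprint protection and guidance of de novo methylation, 3 were higher and 1 lower against cycling cells and 5 higher and 1 lower against non-cycling cells, led by the demethylase Kdm1b, which oocytes need for maternal imprints (3.30 ± 0.60 and 2.76 ± 0.57). Of 7 readers of methylated CpG 1 was higher and 1 lower against either class.

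Over age, the 4 lists gave 5 calls of 44 tested genes in germ cells (11.4%, where 11.02% of all genes were called). In germ cells Zfp57, a keeper of imprints, rose by 1.5 ± 0.17 per step (adjusted p = 0.00183), Neil2 by 1.38 ± 0.18 (0.00302) and Kdm1b by 0.97 ± 0.13 (0.00338). The glycosylase Tdg, which excises what TET enzymes make of methylated cytosine, fell by 0.52 ± 0.10 (0.00976), and Trim28, the partner of Zfp57, by 0.41 ± 0.09 (0.0180). For the gap between germ and cycling cells they gave 11 calls of 45 (24.4%, where 15.0% of all genes were called). Pcna (-0.50 ± 0.12 per step, adjusted p = 0.0123), Cdca7 (-0.41 ± 0.12, 0.0337) and Uhrf2, a relative of Uhrf1 (-0.34 ± 0.09, 0.0149), moved down, opposite to Uhrf1. Between the somatic classes Pcna (1.63 ± 0.35) and Lig1 (1.56 ± 0.32), which act at the replication fork, were higher in cycling cells with Dnmt1.

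Genes whose level over the 21 sums was most like that of a member were ranked by Pearson's r of log2(CPM + 1), as a description, over sums that share libraries and depth. For Tet3 they were Igf1r (0.969), Usf2 (0.938) and Exoc7 (0.937), for Tet1 Gcnt2 (0.940), Plcd1 (0.928) and Trip10 (0.905), and for Dnmt3a Ppp1r9a (0.938), Atxn7l3b (0.936) and Plce1 (0.926). For Uhrf1 the nearest were Haus5 (0.864), Gps2 (0.860) and Cmc2 (0.839), for Dnmt1 Mrpl51 (0.899), Tonsl (0.892) and Chek2 (0.886), for Dnmt3b Prkar2a (0.904), Dusp23 (0.865) and Pdzd11 (0.860), and for Tet2 Rev3l (0.915), Map2k7 (0.909) and Krba1 (0.903).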

How the data were processed

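Droplet libraries were sequenced and turned into UMI counts per gene and barcode by the authors with Cell Ranger 3.1.0 at default settings and its mm10 reference, per the labels, and the deposited matrices hold these counts unnormalized. Barcodes with at least 200 genes were kept. Libraries held 31960736 to 124390521 UMIs, which sets the counting intervals (95%, exact Poisson for levels, exact conditional for ratios). Putative doublets were called with Scrublet in Scanpy 1.11.5 and kept in the main values. Where its own threshold marked under 1% of a library (E11.5 and E12.5), the top 5% of scores was taken instead, and these cells were left out as an alternative.

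Counts were summed per library and class and tested with edgeR 4.0.16 (TMM, filterByExpr, glmQLFit and glmQLFTest, R 4.3.3). Levels and ratios of single libraries are CPM without the TMM factors, which ran from 0.645 (P1 cycling) to 1.22 (E16.5 non-cycling). Class fits used the 21 sums with library as a block, and age fits were linear in the order of the 7 ages. A gene was called at an adjusted p under 0.05. Alternatives were other scalings, filters, class rules, DESeq2 1.42.0, no block, and each library left out. Sign-flip tests added 0.5 to each count. The scripts were tested on simulated data.

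The members and lists were chosen with earlier results of these data known. From each list up to 3 called genes per direction were named, by size of change, and for likeness the 3 highest correlations. Somatic cells were put in a marker group where at least 3 different markers of that list were present and more than of any other list, a rule chosen after seeing the data, as were the alternatives without erythroid-marker cells, with mesenchymal-marker cells only, and without E11.5 and E16.5. The splits of E12.5 germ cells by Mki67 and of E16.5 germ cells by Stra8, and the UMI limits of all splits, were also chosen with the data in view and are descriptive. Nothing says that cells of 1 library came from separable animals, so p-values measure the spread between 7 libraries, each of another age.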

Additional observations from a re-analysis of the deposited data

Results flagged for a closer look

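For 4 members the germ and cycling somatic cells moved differently with age in edgeR's test of the difference itself, which is what singled them out. The change of the germ to cycling gap per age step was 0.772 (log2) for Dnmt3b, 0.636 for Uhrf1 and 0.946 for Tet3, and -1.17 for Tet1. The ages are single libraries, and erythroid-marker cells took 3.75 to 63.8% of the cycling class, so the same term was refitted without them and in mesenchymal-marker cells only. All 4 remained called in both fits. Uhrf1 was not called without P5, at 0.43 (adjusted p = 0.0700), the library with the fewest germ cells after E11.5 (62).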

How the results depend on the processing

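With 1 library per age, no single age has a replicate, and the E11.5 and P5 germ sums rest on 38 and 62 cells. Of the members' values under the alternatives set at the start, 814 kept their side of the threshold, 19 passed it and 21 lost it, and under the added ones 143, 2 and 2 did so. Values of the sign-flip test, counted among the former, were judged by its unadjusted p under 0.05. No called value changed sign, and sign changes of values not called were not counted. Levels in CPM weight cells by their UMIs. Of 168 levels, 59 left their counting interval when the CPM of each cell was averaged instead (0.359 to 1.58 of the main level). Without erythroid-marker cells 46 did so (up to 2.45-fold) and with mesenchymal-marker cells only 79 (up to 4.49-fold). Under the other class and cell rules 0 to 22 did. The calls in germ against non-cycling cells stood in all alternatives but that of Tet2 without the library block (adjusted p = 0.165), a fit in which Uhrf1 was called higher (0.0355), as with DESeq2 (0.0489). Restricted to embryonic day over the 5 prenatal libraries, the germ slope of Dnmt3b (0.218), the non-cycling slopes of Dnmt1 (0.183) and Uhrf1 (0.202) and the gap of Uhrf1 (0.115) were not called, and the gaps of Dnmt1 (-0.32, 0.0364) and Dnmt3a (0.00442) were. DESeq2 added Uhrf1 (0.015) and Tet2 (0.0371) between the somatic classes and Dnmt3b (0.0236) in the non-cycling slope, and scaling by library size alone added Tet2 (0.0433) between the somatic classes and Dnmt3a (0.0424) for the gap. Counts of genes called moved more. In cycling against non-cycling cells they were 2003, with 3232 by DESeq2, 822 without the block, 1269 without erythroid-marker cells and 492 in mesenchymal-marker cells. For germ slopes they were 1349, with 2231 without the low-count filter and 2385 by DESeq2. For cycling slopes they were 123, with 63 by library size alone, 471 without the filter, 967 by DESeq2, 73 with the stricter Mki67 rule, 197 without erythroid-marker cells, 702 in mesenchymal-marker cells, 1 without E11.5 and E16.5, and 261 over prenatal days. For non-cycling slopes they were 643, with 1044 without the filter, 1899 by DESeq2, 1083 in mesenchymal-marker cells, 396 without E11.5 and E16.5, and 20 over prenatal days. For the gap they were 2251, with 1373 without E11.5 and E16.5. Leaving out 1 library gave 1032 to 2420, 527 to 2272, 15 to 1077, 232 to 774 and 1055 to 2801 in that order. Scaling by library size alone moved the median of all genes by 0.14 (germ against cycling), -0.21 (cycling against non-cycling) and 0.13 (gap), and the share of calls that were upward from 59.96 to 38.8% (48.5% by DESeq2) between the somatic classes, 53.7 to 65.1% in germ slopes, 48.8 to 31.7% (71.3% by DESeq2) in cycling slopes and 47.5 to 75.6% for the gap. The cause of these moves was not tested.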

Other observations

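Dnmt3bos, an annotated antisense gene over the start of Dnmt3b (chr2:153648690-153650286, minus strand), was counted almost only in germ cells after birth. It had 88 UMIs (14.4 CPM) at P1 and 18 (5.23 CPM) at P5, against 3 at E18.5, 3 at E16.5 and 0 at the earlier ages, and at most 5 UMIs in any somatic sum. Dnmt3b in germ cells was also highest at P1 and P5. Cell Ranger at default settings counts reads by strand, so that the overlapping genes are counted apart. Dnmt3aos, the antisense neighbour of Dnmt3a, had 206 UMIs (2.55 CPM) in non-cycling cells of E16.5. In that library cycling cells had 18 (0.981 CPM) and germ cells 10 (0.394 CPM), so that each class was highest there. Any sum of another library had at most 13.

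At E16.5 the germ cells richest in Stra8 differed from those with 0 UMIs of it. Levels of the cells with 1 to 9 UMIs, among the 1024 germ cells, are not given here. The 27 cells with 10 or more UMIs held 22.7 CPM of Tet1 and 24.9 CPM of Uhrf1, and the 739 cells with 0 held 6.41 and 76.2 CPM. Dnmt1 was at 155 against 69.0 CPM and Tet3 at 15.1 against 53.9 CPM, so that those 27 cells lay nearer to the E14.5 germ cells in each of the 4 genes.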
